A study of Mus musculus with 23 samples.

Results

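The genes described here encode the subunits of the NMDA receptor: Grin1, Grin2a, Grin2b, Grin2c, Grin2d and Grin3a. They were taken by symbol from the 45706 gene IDs of the count table, and all 6 had enough reads to be tested. Polyadenylated RNA from mouse hippocampus was sequenced in 23 libraries of 3 neuronal populations, named CamK, Grik and SST after the sample titles. The series sets gene expression of wild-type (WT) mice against that of conditional knockouts (cKO) of Slm2 in CA1 and CA3 pyramidal cells and in somatostatin interneurons. SLM2, the product of Khdrbs3, binds RNA and regulates splicing. The groups were WT CamK (4 libraries), CamK cKO (3), WT Grik (4), Grik cKO (4), WT SST (4) and SST cKO (4), with CamK and Grik labelled as excitatory pyramidal cells. The sources used here do not give the Cre drivers, the deleted exons, the strain, age and sex of the mice, or what the WT mice carried, and nothing in the labels says whether replicates were separate animals. P-values therefore measure the spread between these libraries.

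NMDA receptors are glutamate-gated cation channels that pass calcium and open only when glutamate, a co-agonist (glycine or D-serine) and depolarisation come together, because magnesium blocks the pore at rest. Every receptor contains GluN1, the glycine-binding subunit encoded by Grin1, joined by glutamate-binding GluN2 subunits encoded by the Grin2 genes and, in some receptors, by the glycine-binding GluN3A encoded by Grin3a. The GluN2 subunit sets gating speed and magnesium block: GluN2A gives fast currents, GluN2B slow ones, and GluN2C and GluN2D give receptors with weak magnesium block. In the hippocampus these receptors are known for their role in synaptic plasticity of pyramidal cells.

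Each library held 87612006 to 112993538 reads in genes. Replicates of a group differed by more than counting noise, with a chi-square per degree of freedom of 8.79 to 215 over 33 pairs. Levels are given as counts per 1000000 reads (CPM) scaled by TMM factors. The labelled cell types were checked against their markers. The CA1 markers Wfs1, Fibcd1 and Pou3f1 summed to 625 to 905 CPM in WT CamK and 44.9 to 62.2 CPM in WT Grik, and the CA3 markers Grik4, Bok and Iyd to 76.3 to 90.3 and 336 to 411 CPM. Markers of dentate granule cells (Prox1, C1ql2 and Dsp) were present as well, at 97.9 to 259 CPM in WT CamK, 139.9 to 149.7 in WT Grik and 27.6 to 38.8 in WT SST. The interneuron markers Sst, Lhx6 and Elfn1 summed to 726 to 2296 CPM in WT SST, against 9.89 to 17.5 in WT CamK and 9.22 to 13.6 in WT Grik. The targeted gene Khdrbs3 was lower in the libraries labelled cKO of CamK (249 to 294 CPM, WT 356 to 413) and of SST (82.6 to 106 CPM, WT 123 to 139.8). In the edgeR test used below, 2 of all genes were called higher and 0 lower in CamK cKO. The lower level of Khdrbs3 in CamK was therefore not called. In Grik it went against the label, with 396 to 439 CPM in the libraries labelled cKO and 327 to 347 CPM in WT. Hence "WT" and "cKO" below mean the libraries so labelled, also in comparisons between populations.

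The coding sequences of the 6 genes were compared first, since related genes can share reads. For 3 of them, an obligatory, a glutamate-binding and a GluN3 subunit gene, the window printed here is 60 bases of the coding sequence around the motif of the third membrane segment, which lines the channel and is among the most conserved stretches of the family. Sequences come from the GENCODE M21 transcripts of GRCm38, read 5′ to 3′ on the minus strand, and capitals mark bases that differ from Grin1.
Grin1: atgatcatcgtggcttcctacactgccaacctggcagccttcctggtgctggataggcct
Grin2c: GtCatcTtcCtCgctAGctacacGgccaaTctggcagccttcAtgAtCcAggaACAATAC
Grin3a: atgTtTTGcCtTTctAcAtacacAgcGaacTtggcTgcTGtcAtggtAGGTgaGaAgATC
The windows lie in exon 15 of Grin1 (chr2:25297181-25297240), exon 9 of Grin2c (chr11:115253731-115253790) and exon 3 of Grin3a (chr4:49770452-49770511). Grin2c differed from Grin1 at 20 of the 60 bases and Grin3a at 25. Pairs of Grin2 genes, which enter the ratios and shares, were more alike than these windows show: their longest runs of identical coding bases were 18 to 34 bases, the longest between Grin2b and Grin2c, against 12 to 14 bases in pairs with Grin1 or Grin3a. With read length unknown, how many reads the Grin2 genes could share was not tested.

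All 6 genes are annotated on the minus strand as protein-coding. Grin1 (ENSMUSG00000026959) spans chr2:25291181-25319187, Grin2a (ENSMUSG00000059003) chr16:9567898-9995560 and Grin2b (ENSMUSG00000030209) chr6:135713233-136173511. Grin2c (ENSMUSG00000020734) spans chr11:115249169-115267243, Grin2d (ENSMUSG00000002771) chr7:45831883-45878378 and Grin3a (ENSMUSG00000039579) chr4:49661611-49845744. Exons of Grin1 overlap those of the antisense gene Grin1os, and exons of Grin2b, Grin2c and Grin2d overlap predicted genes. No source used here gives the strand setting of the counting, so reads of such partners cannot be told apart. Grin1os itself held at most 0.330 CPM in any library, and how many reads fell in the shared exons was not tested.

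Between populations 5 of the subunit genes fell into 3 patterns, and Grin2c, the least abundant, is described apart. Grin2a and Grin2b were higher in both pyramidal populations than in SST, Grin2d and Grin3a were higher in SST, and Grin1 differed by at most 1.18-fold in the 3 WT comparisons. In WT libraries 5 of the 6 genes passed an adjusted p of 0.05 between CamK and SST in edgeR's quasi-likelihood test (2 higher and 3 lower in CamK), where 60.1% of the 18823 genes tested passed, 29.5% higher and 30.5% lower. Between Grik and SST 4 passed (2 higher and 2 lower in Grik), against 57.3% of all genes, 28.1% higher and 29.2% lower. Between CamK and Grik 1 passed, Grin3a, higher in CamK, against 42.0% of all genes, 20.9% higher and 21.1% lower. With so many of all genes called, the number of members called is not in itself a result about the receptor genes.

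The libraries labelled cKO, which share no library with the WT comparisons, were compared in the same way. There 6 members passed between CamK and SST (3 higher and 3 lower in CamK), against 56.4% of all genes, 26.9% higher and 29.4% lower. Between Grik and SST 5 passed (3 higher and 2 lower in Grik), against 57.9%, 27.9% higher and 30.0% lower. Between CamK and Grik 2 passed (1 higher and 1 lower in CamK), against 35.7%, 17.4% higher and 18.3% lower. Every member called between WT populations was also called between the same populations labelled cKO, with the same sign. The members called there and not in WT were Grin1 in both comparisons with SST and Grin2c between CamK and Grik.

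**Figure D1:**
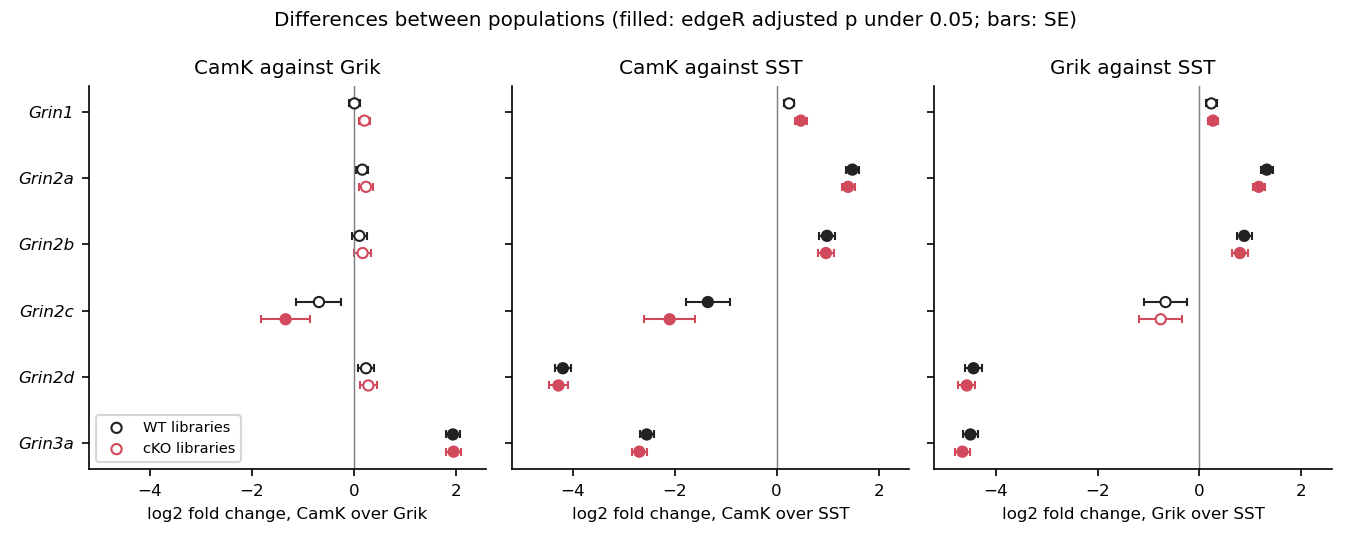
Log2 fold changes of the 6 genes between populations (x axis, first population over second), in WT libraries (black) and in libraries labelled cKO (red). Bars are SE from edgeR and filled points passed an adjusted p of 0.05; Grin2d and Grin3a lie far left of 0 in both comparisons with SST, Grin2a and Grin2b right of 0, and the WT and cKO points of a gene lie close together except for Grin2c.

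Grin1, the subunit that every NMDA receptor needs, differed little between populations. It was 291, 312, 350.2 and 342 CPM in WT CamK, 263, 302, 367 and 353 CPM in WT Grik, and 267, 309.8, 242 and 276 CPM in WT SST. The ranges of the 3 groups overlapped. The log2 fold change was 0.01 (SE 0.11) for CamK over Grik, 0.24 (SE 0.11, adjusted p in edgeR 0.0501) for CamK over SST and 0.23 (SE 0.11, adjusted p in edgeR 0.0645) for Grik over SST. Both comparisons with SST lay close to the threshold and crossed it under some settings: over the alternatives run, the adjusted p was 0.0220 to 0.158 for CamK and 0.0105 to 0.211 for Grik. Among libraries labelled cKO, Grin1 was higher in CamK than in SST by 0.47 on the log2 scale (SE 0.11, adjusted p in edgeR 0.00097). In Grik it was higher than in SST by 0.27 (SE 0.11, adjusted p in edgeR 0.0348). Limma-voom (adjusted p 0.0545) and a replicate block in edgeR (adjusted p 0.0757) did not make that call, and it was lost without Grik cKO replicate 1 or 2 or SST cKO replicate 4 or 7 (adjusted p in edgeR 0.0601 to 0.0895).

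Grin2a encodes GluN2A, the subunit that rises as hippocampal synapses mature. Its level was 274, 238, 233 and 213 CPM in WT CamK, 235, 211, 215 and 194 CPM in WT Grik, and 64.5, 88.9, 99.8 and 89.1 CPM in WT SST. Every pyramidal library was above every SST library, and the CamK and Grik ranges overlapped. The log2 fold change was 1.49 (SE 0.12, adjusted p in edgeR 1.6e-10) for CamK over SST and 1.32 (SE 0.12, adjusted p in edgeR 1.2e-09) for Grik over SST. Between CamK and Grik it was 0.17 (SE 0.12, adjusted p in edgeR 0.278). In libraries labelled cKO the values were 1.40, 1.16 and 0.24 (SE 0.13, 0.12 and 0.13).

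Grin2b encodes GluN2B, the subunit with the long cytoplasmic tail that binds CaMKII. It stood at 716, 743, 736 and 539.9 CPM in WT CamK, at 724, 657, 633 and 521 CPM in WT Grik, and at 230.0, 371, 422 and 357 CPM in WT SST. As for Grin2a, both pyramidal groups lay above SST without overlap, and they overlapped each other. The log2 fold change was 0.99 (SE 0.15, adjusted p in edgeR 5.7e-06) for CamK over SST and 0.88 (SE 0.15, adjusted p in edgeR 2.7e-05) for Grik over SST. CamK over Grik gave 0.11 (SE 0.15, adjusted p in edgeR 0.592). In bulk libraries fewer expressing cells and less RNA per cell cannot be told apart. In WT SST, Grin2a was at 35.7% and Grin2b at 50.5% of its WT CamK mean. The pyramidal markers Slc17a7, Camk2a and Neurod6 were at 8.72%, 17.9% and 4.82% there, and none of them was at 0 in any library; the part of pyramidal RNA in the SST levels was not tested.

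**Figure D2:**
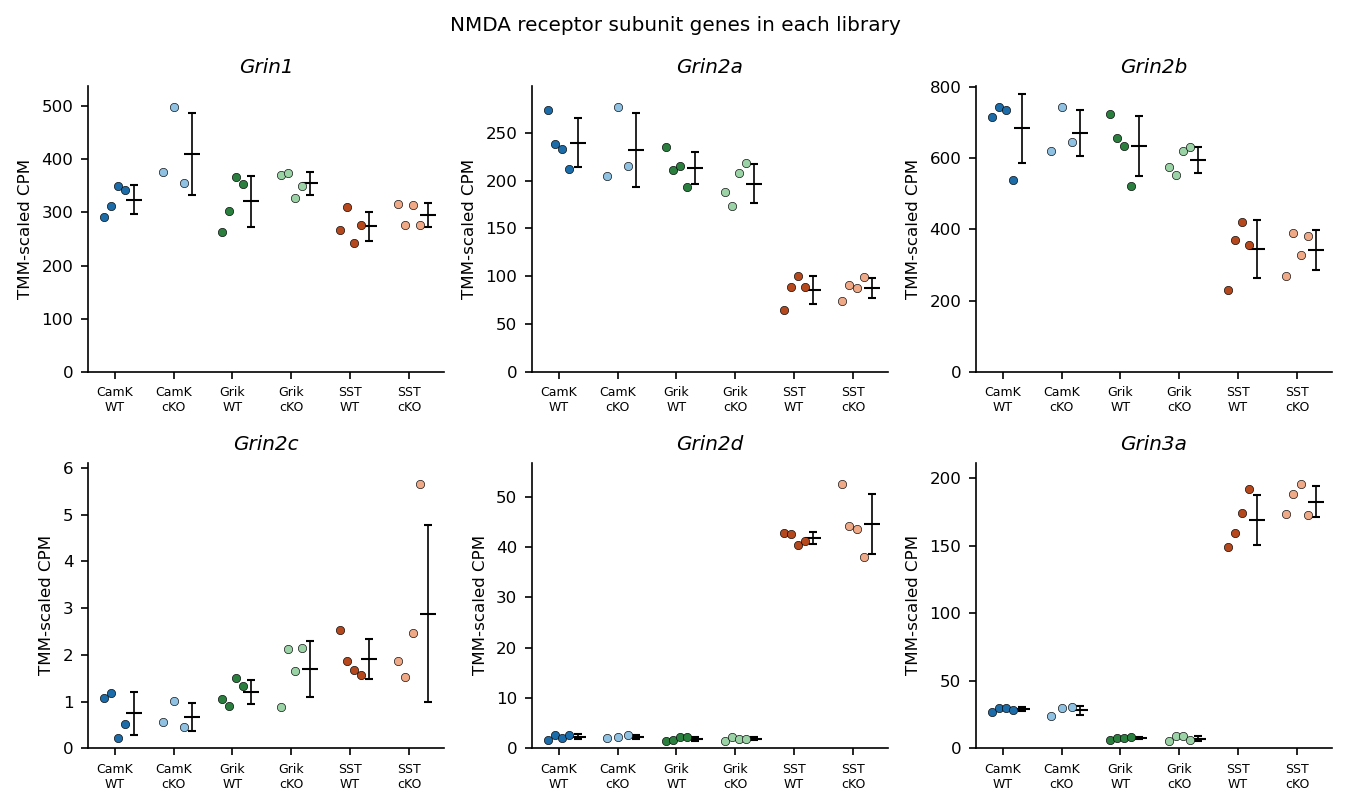
TMM-scaled CPM of each gene (y axes from 0, with their own scale) in the 23 libraries, by population and label. Points are libraries, and the bar beside them is the mean ± SD of the group (n = 3 in CamK cKO and 4 in the others); Grin2d and Grin3a are highest in SST, Grin2a and Grin2b are lower in SST, and Grin2c is low everywhere with 1 SST cKO library at 5.66 CPM.

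The ratio of Grin2a to Grin2b, a usual measure of the balance of these subunits, was lower in SST than in both pyramidal populations. Gene length, taken as a fixed factor of each gene, cancels when the log2 ratio of read counts is compared between groups. A length effect that differs between libraries would not cancel, and such an effect between populations was not tested. In WT CamK the count ratio was 0.383, 0.321, 0.317 and 0.394, in WT Grik 0.324, 0.321, 0.340 and 0.372, and in WT SST 0.281, 0.240, 0.237 and 0.249. No SST library reached the lowest pyramidal one. The ratio was 1.40-fold higher in CamK than in SST and 1.35-fold higher in Grik than in SST. In a two-sided exact permutation test of the log2 ratio over 4 against 4 libraries, both gave p = 0.0286, the smallest this design allows, and 0.0462 after Benjamini-Hochberg adjustment over 21 comparisons of 7 ratios. Every ratio at that smallest p has the same adjusted value: 6 in each comparison with SST and 1 between CamK and Grik. The adjusted value depends on how many ratios reached it, so it is not a separate measure of this ratio. CamK and Grik differed by 1.04-fold, less than the spread between replicates (exact permutation p = 0.629, adjusted 0.695).

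The libraries labelled cKO gave ratios of 0.345 ± 0.0236 (SD, n = 3) for CamK, 0.331 ± 0.0137 (SD, n = 4) for Grik and 0.259 ± 0.0181 (SD, n = 4) for SST. Again the SST libraries lay below all pyramidal ones. Neither difference from SST passed after adjustment (exact permutation p = 0.0571 for CamK and 0.0286 for Grik, each adjusted 0.08). With 3 against 4 libraries the exact permutation p cannot go below 0.0571. The comparisons with CamK share the adjustment over 21 tests with that of Grik against SST. No adjusted p among them could therefore fall under 0.05, whatever the ratios.

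**Figure D3:**
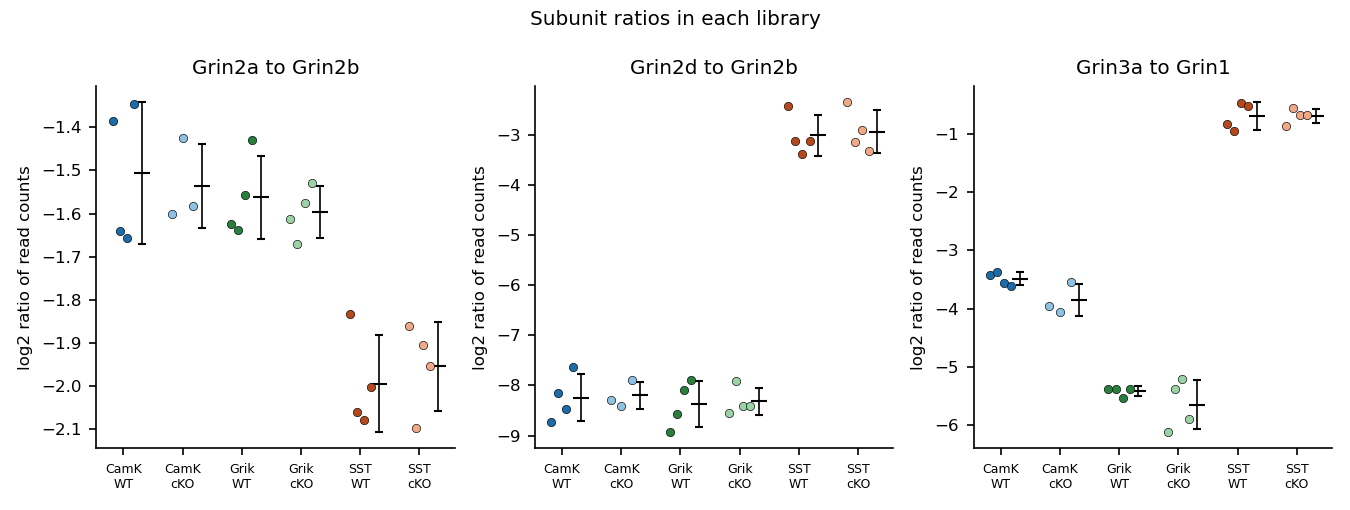
Log2 ratio of read counts (y axes, each with its own scale) for Grin2a to Grin2b, Grin2d to Grin2b and Grin3a to Grin1 in the 23 libraries. Points are libraries and bars are the mean ± SD of each group; in every panel the SST libraries lie apart from both pyramidal populations, and Grin3a to Grin1 also separates CamK from Grik.

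Grin2d encodes GluN2D, the subunit known for slow deactivation and for its presence in hippocampal interneurons. It was 42.9, 42.7, 40.5 and 41.2 CPM in WT SST, 1.70, 2.63, 2.09 and 2.71 CPM in WT CamK, and 1.49, 1.73, 2.32 and 2.19 CPM in WT Grik. Its WT SST libraries had the smallest relative spread of the 6 genes in any group, a mean of 41.8 ± 1.15 CPM (SD, n = 4). The log2 fold change was -4.20 (SE 0.16, adjusted p in edgeR 8.6e-17) for CamK over SST and -4.43 (SE 0.16, adjusted p in edgeR 3.0e-17) for Grik over SST. CamK and Grik did not differ beyond their spread (log2 fold change 0.24, SE 0.15, adjusted p in edgeR 0.227). The ratio of Grin2d to Grin2b was 37.5-fold lower in WT CamK and 41.1-fold lower in WT Grik than in WT SST, with the smallest exact permutation p of 0.0286 and an adjusted p of 0.0462 in each.

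Grin3a encodes GluN3A, a subunit that lowers calcium permeability and magnesium block. It separated all 3 populations: 149, 159.7, 174 and 192 CPM in WT SST, 27.1, 30.2, 29.9 and 28.2 CPM in WT CamK, and 6.32, 7.29, 7.89 and 8.47 CPM in WT Grik. No group overlapped another. CamK was below SST by 2.55 on the log2 scale (SE 0.13, adjusted p in edgeR 5.1e-14) and Grik by 4.49 (SE 0.15, adjusted p in edgeR 1.0e-17). Grin3a was the only member called between CamK and Grik in WT, by 1.94 on the log2 scale (SE 0.13, adjusted p in edgeR 3.7e-11), and the libraries labelled cKO gave 1.96 (SE 0.14, adjusted p in edgeR 9.5e-11). Its close homologue Grin3b, which is not among the members, held at most 30 reads in any library.

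The low levels of Grin2d and Grin3a in pyramidal libraries were set beside interneuron markers. Grin2d in WT CamK was at 5.46% of its WT SST mean and in WT Grik at 4.62%, and Grin3a was at 17.1% and 4.44%. The inhibitory markers Gad1, Gad2 and Slc32a1 were at 2.30%, 1.23% and 1.55% in WT CamK and at 1.89%, 0.693% and 0.821% in WT Grik, and none was at 0 in any library. The SST markers Sst, Lhx6 and Elfn1 were at 0.560%, 0.294% and 3.10% in WT CamK and at 0.815%, 0.302% and 0.606% in WT Grik. Grin3a in WT CamK thus stood at a larger share of its SST level than any of these 6 markers. For Grin3a in Grik, and for Grin2d, the shares also exceeded those of all 6 markers. Markers of other interneurons were mixed. Mean Pvalb was 1.05 CPM in WT CamK, 1.05 CPM in WT Grik and 139.9 CPM in WT SST, and Htr3a was 0.456, 3.0 and 10.8 CPM in the same order, so that its share in Grik was above those of Grin2d and Grin3a. Vip (0.348, 10.5 and 0.610 CPM) was highest in WT Grik, and Lamp5 (41.7, 32.7 and 9.18 CPM) was higher in both pyramidal populations than in SST. The part of interneuron RNA in these levels was not tested.

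Grin2c encodes GluN2C, known from cerebellar granule cells and from astrocytes, and was the lowest member per exon length in the 3 WT groups. It was 1.079, 1.19, 0.215 and 0.514 CPM in WT CamK (19 to 107 reads), 1.06, 0.915, 1.51 and 1.32 CPM in WT Grik, and 2.53, 1.87, 1.68 and 1.56 CPM in WT SST. The WT CamK libraries were below those of WT SST and overlapped those of WT Grik. WT Grik also lay below WT SST without overlap, with a log2 fold change that did not pass (-0.67, SE 0.43, adjusted p in edgeR 0.193). In libraries labelled cKO those groups overlapped (-0.76, SE 0.42, adjusted p in edgeR 0.128). The log2 fold change for CamK over SST was -1.35 (SE 0.44, adjusted p in edgeR 0.0108) in WT and -2.10 (SE 0.49, adjusted p in edgeR 0.00096) in libraries labelled cKO. For CamK over Grik it was -0.68 (SE 0.44, adjusted p in edgeR 0.226) in WT and -1.34 (SE 0.49, adjusted p in edgeR 0.0356) in cKO, a call lost without CamK cKO replicate 4 or 6 or Grik cKO replicate 2, 3 or 4. That call was also lost without a filter on low counts (adjusted p in edgeR 0.0716), with the replicate block (0.0694) and with the non-neuronal score described next (0.920).

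Astrocyte markers moved with Grin2c. Aqp4, Gja1, Slc1a3, Aldh1l1 and Gfap summed to 9.01 to 20.99 CPM in WT CamK, 50.9 to 60.9 in WT Grik and 53.6 to 105 in WT SST, with all 5 lower in CamK than in SST. In libraries labelled cKO CamK summed to 19.9 to 31.5 CPM, Grik to 49.9 to 73.4 and SST to 48.4 to 134. None of the 5 markers was at 0 in any library. SST cKO replicate 7, with the highest Grin2c level of all libraries at 5.66 CPM, also had the highest astrocyte sum. With a non-neuronal marker score as a covariate the direction of the WT difference between CamK and SST turned, to 0.64 (adjusted p in edgeR 0.363), and the cKO difference fell to -0.14 (adjusted p in edgeR 0.856). That score ran from -1.87 to -0.37 in CamK libraries, from -0.13 to 0.67 in Grik and from 0.003 to 1.35 in SST. As CamK overlapped neither, these fits cannot separate the score from the population. What non-neuronal RNA contributes to the Grin2c level was not tested.

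Levels of different subunit genes can be compared only per length, here in CPM per kilobase of the union of annotated exons. In WT CamK the order was Grin1 (33.4), Grin2b (27.5), Grin2a (13.4), Grin3a (2.35), Grin2d (0.343) and Grin2c (0.149), and WT Grik had the same order. In WT SST it was Grin1 (28.2), Grin2b (13.9), Grin3a (13.8), Grin2d (6.28), Grin2a (4.77) and Grin2c (0.379). There Grin3a came before Grin2a, whereas it came after Grin2a in both pyramidal populations. Per kilobase of coding length, Grin2b came before Grin1 in CamK and Grik, and Grin2a before Grin2d in SST, where Grin2b (77.6) and Grin3a (49.6) were further apart; annotated exon length includes untranslated ends whose use in these cells is unknown.

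Among the Grin2 genes alone, the share per exon length of Grin2b was 66.4% ± 2.56 in WT CamK, 67.1% ± 1.68 in WT Grik and 54.3% ± 5.17 in WT SST (SD, n = 4 each). The share of Grin2a was 32.4% ± 2.45, 31.5% ± 1.32 and 18.8% ± 0.512, and that of Grin2d was 0.849% ± 0.267, 0.782% ± 0.225 and 25.4% ± 4.97. In the 4 WT SST libraries Grin2d made up 21.01 to 32.5%, more than Grin2a at 18.2 to 19.2%, whereas in WT pyramidal libraries it was 0.524 to 1.20%. The size of this share depends on the length used: per coding length Grin2d made up 10.1% ± 2.58 and Grin2a 18.1% ± 0.571 in WT SST. Under both lengths Grin2d held a share in SST far above its pyramidal shares of 0.782 to 0.849% (exon length) or 0.260 to 0.282% (coding length).

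The comparison stated by the series is that of genotypes within each population. None of the 6 genes passed an adjusted p of 0.05 between libraries labelled cKO and WT in CamK, Grik or SST with edgeR, where 0.0106% of all genes did in each. DESeq2 and limma-voom also called 0 of 6. At an unadjusted p under 0.05 there was 1 in CamK, Grin1, and 0 in Grik and SST, against 7.05, 4.88 and 5.85% of all genes. For Grin2a, Grin2b, Grin2d and Grin3a the log2 fold changes lay between -0.12 and 0.11 in the 3 populations, with SE of 0.12 to 0.17. In simulated counts with these libraries' depth and spread, recovery was counted among changed genes with a mean of at least 1 CPM. In the genotype comparisons 54.9 to 72.4% of those changed by 1.5-fold and 85.3 to 94.4% of those changed by 2-fold were recovered. Of the calls, 1.90 to 5.45% were false. Smaller changes could thus go undetected, and the lower Khdrbs3 in CamK was itself not called. Grin2c in CamK (mean 0.748 CPM in WT and 0.672 CPM in cKO) lay below the 1 CPM limit, so these rates do not cover it.

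Grin1 in CamK was 377, 498 and 356 CPM in the libraries labelled cKO, all above the highest WT library at 350.2 CPM. It was the 1 member whose groups did not overlap in CamK, against 6.75% of all genes; in Grik and SST there were 0, against 4.59% and 2.70%. The log2 fold change was 0.34 (SE 0.11, unadjusted p 0.00615, adjusted p in edgeR 0.609), and it fell to 0.18 (adjusted p in edgeR 0.99) without CamK cKO replicate 5. Grik gave 0.14 (SE 0.11) and SST 0.11 (SE 0.11), with overlapping groups. CamK cKO replicate 5 also had the highest CA1 (1125 CPM) and astrocyte (31.5) and the lowest CA3 (50.2) marker sums of the CamK libraries. Between the CamK genotypes all 5 astrocyte, 5 oligodendrocyte and 3 endothelial markers were higher in cKO (median log2 fold changes 0.57, 0.59 and 0.89), with 0 called. What this contributes to the Grin1 values was not tested. Averaged over populations, with Grik taken by labels that its Khdrbs3 levels go against, the log2 fold change of Grin1 was 0.20 (SE 0.06, unadjusted p 0.00407, adjusted p in edgeR 0.623), in a comparison added after the values were known. It was 0.23 (SE 0.08, unadjusted p 0.00761, adjusted p 0.818) with Grik left out. With the sign of the Grik effect turned it was 0.10 (SE 0.06, unadjusted p 0.114, adjusted p 1.0). No member passed in it as labelled (0.0106% of all genes did), with 1 member at an unadjusted p under 0.05 against 6.66% of all genes, and 0 passed by DESeq2 and limma-voom. With Grik left out 0 passed (0.0159% of all genes) and 1 had an unadjusted p under 0.05 (5.69%), and with Grik turned 0 passed (0.00531%) and 0 did (4.21%).

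Grin2c had the widest genotype values, with log2 fold changes of -0.16 (SE 0.49) for CamK, 0.50 (SE 0.43) for Grik and 0.59 (SE 0.42) for SST. None passed the test (adjusted p in edgeR 0.972, 0.992 and 0.85). Without SST cKO replicate 7 the SST value was 0.03. Whether genotype effects differed between populations was tested by interaction, and 0 of 6 members passed for CamK against Grik (0.00531% of all genes), CamK against SST (0%) and Grik against SST (0.0106%). At an unadjusted p under 0.05 there were also 0 members, against 6.50, 7.85 and 3.86% of all genes, and DESeq2 and limma-voom called 0. Both comparisons with Grik take its genotypes by the labels that Khdrbs3 goes against. With the sign of the Grik effect turned, an alternative added after the values were known, edgeR, DESeq2 and limma-voom again called 0 members for CamK against Grik (edgeR 0.0106% of all genes) and Grik against SST (0.00531%). For CamK against Grik the Grin1 difference then went from 0.20 (SE 0.16, unadjusted p 0.217) to 0.49 (SE 0.16, unadjusted p 0.00458, adjusted p in edgeR 0.703). It was the 1 member under an unadjusted 0.05 there (6.16% of all genes), with 0 for Grik against SST in edgeR (7.88%). Limma-voom put 1 member, Grin1, under that threshold for Grik against SST, and its share over all genes is not given here.

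**Figure D4:**
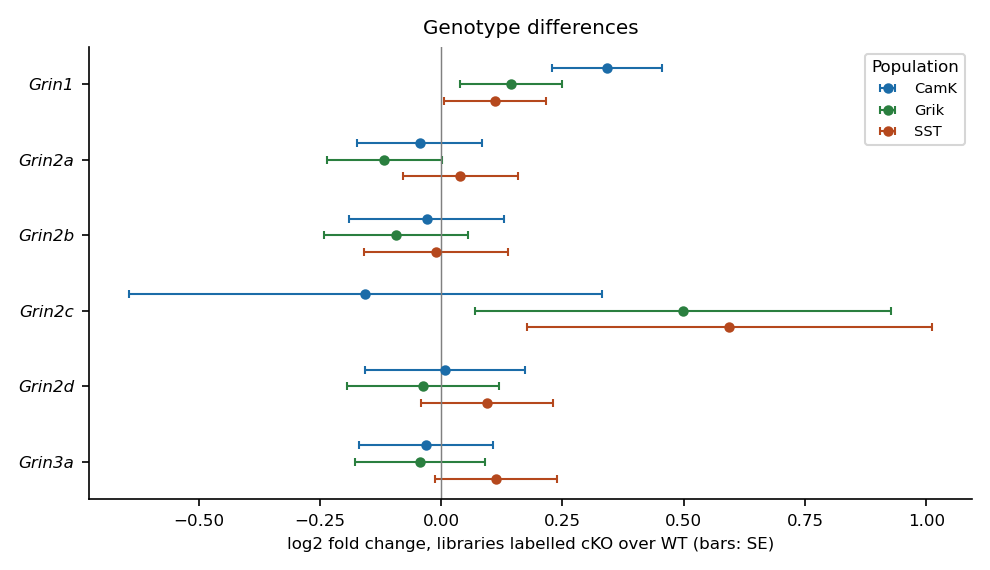
Log2 fold change of each gene between libraries labelled cKO and WT (x axis) in CamK, Grik and SST; bars are SE from edgeR. The values of 4 genes lie between -0.12 and 0.11, Grin1 is right of 0 in all 3 populations, and Grin2c has the widest bars; none passed the adjusted threshold.

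No subunit ratio passed a test between genotypes. The Grin2a to Grin2b ratio of cKO over WT gave log2 differences of -0.03 in both CamK and Grik, and of 0.04 in SST, with exact permutation p of 0.914, 0.6 and 0.6 and adjusted p of 0.96, 0.953 and 0.953. Of the 7 ratios, 0 passed in any population before or after adjustment, and 3 against 4 CamK libraries cannot go below 0.0571. In CamK the ratio of Grin2a to Grin1 was the 1 ratio whose groups did not overlap, with a log2 difference of -0.38 (exact permutation p = 0.0571, adjusted 0.8), and it rests on the Grin1 values given above.

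Within groups, Grin2a and Grin2b rose and fell together from library to library. The deviation of each library from its group mean (log2 CPM) correlated between the 2 genes with Pearson's r = 0.89 and Spearman's rho = 0.84 over 23 libraries. The permutation p within groups was 1e-05 for r, the smallest that 100000 permutations give, and 2e-05 for rho, each adjusted to 0.00027 over 27 relations. Without the 2 libraries farthest from the median in Grin2a (CamK cKO replicate 5 and SST WT replicate 1) r was 0.86, and within populations it was 0.72 in CamK, 0.86 in Grik and 0.98 in SST.

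Both genes also followed a length index, which is the correlation, over 10582 genes of a library, of the deviation from the group mean with log2 exon length. A high index means that long genes read higher in that library than in its replicates, and it ranged from -0.41 to 0.36. Grin2a and Grin2b have exon lengths of 17933 and 24842 bases, the longest of the 6. Their deviations correlated with the index at r = 0.73 (rho 0.75) and r = 0.71 (rho 0.74), with permutation adjusted p of 0.00081 and 0.00027 for r and 0.00027 for each rho; without the 2 farthest libraries r was 0.72 and 0.78. Within populations r was 0.67 to 0.86 for Grin2a and 0.75 to 0.92 for Grin2b. With the index as a covariate, chosen after the values were seen, Grin1 between WT CamK and SST and Grin2a between CamK and Grik labelled cKO were called in addition (adjusted p in edgeR 0.0389 and 0.0303). The numbers of members called in the other 4 comparisons between populations were the same. As the index is built from deviations from group means, this fit could not test a length effect between populations.

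**Figure D5:**
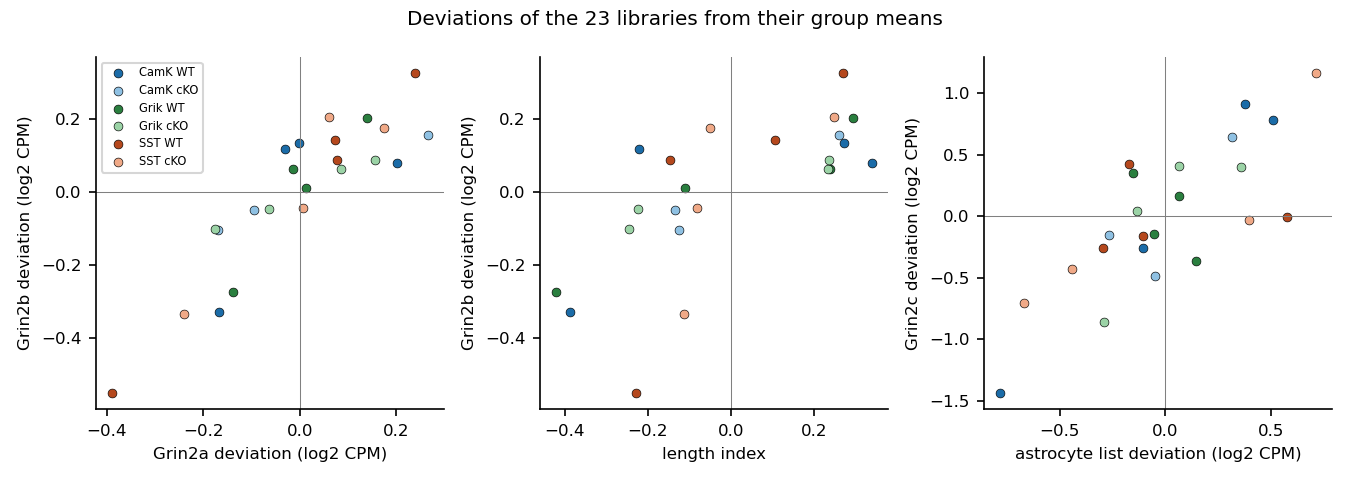
Deviations of the 23 libraries from their group means (log2 CPM): Grin2b against Grin2a, Grin2b against the length index (a correlation, without unit), and Grin2c against the mean of 5 astrocyte markers. Points are libraries coloured by group; the points rise together in all 3 panels, with r of 0.89, 0.71 and 0.78.

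Of the other relations, 1 passed: Grin2c followed the mean of the 5 astrocyte markers (r = 0.78, rho = 0.68, permutation p 0.00078 and 0.00431, adjusted 0.00527 and 0.0291; r = 0.65 without the 2 farthest libraries). Within populations this r was 0.96 in CamK, 0.52 in Grik and 0.74 in SST. The remaining 23 relations, which covered the other pairs of members and the relations of the other members with the index and the markers, did not pass after adjustment.

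The 2 genes whose log2 CPM most resembled each member over all 23 libraries, among 12964 genes, were then listed; these r values include differences between the 3 populations and carry no test. For Grin2d they were Csk and Zfp385a (r = 0.995 each), and for Grin3a Nap1l5 and Ankrd34b (r = 0.996 each). Grin2a was most like Syne1 (r = 0.99) and Zfp599 (r = 0.98), Grin2b was most like Grin2a and Slk (r = 0.97 each), Grin1 was most like Pld3 (r = 0.92) and Clstn1 (r = 0.90), and Grin2c was most like Klhdc7a (r = 0.92) and F3 (r = 0.91). In the 12 WT libraries alone, 1 of the 2 genes was kept for Grin2a, Grin2c, Grin2d and Grin3a and 0 for Grin1 and Grin2b.

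The receptor works with scaffold proteins, kinases, effectors, transport proteins and enzymes or transporters of its co-agonists, and 46 such partner genes were listed, of which 45 were tested. Between WT CamK and SST 41 of them passed (29 higher and 12 lower in CamK), where 60.1% of all genes did (29.5% higher, 30.5% lower), and the median of their log2 fold changes was 0.67, against -0.02 over all genes. Between Grik and SST 37 passed (26 higher, 11 lower, median 0.55 against -0.03), where 57.3% of all genes did (28.1% higher, 29.2% lower). Between CamK and Grik 32 passed (18 higher, 14 lower, median 0.10 against 0.01), where 42.0% of all genes did (20.9% higher, 21.1% lower). Non-neuronal markers moved in these comparisons too. All 5 astrocyte (median log2 fold change -1.86), 4 of 5 oligodendrocyte (-2.49), both precursor (-2.15), 4 of 5 microglial (-1.50) and all 3 endothelial markers (-2.92) were called lower in WT CamK than in WT SST. In WT Grik 3 oligodendrocyte markers and 1 precursor marker were called higher than in SST, and 1 astrocyte and 3 endothelial markers lower. With the non-neuronal score as a covariate 35 partners passed between CamK and SST, while the number over all genes went from 11305 to 7518. Between Grik and SST 37 passed with it, and the number over all genes in that fit is not given here. With that covariate 17 partners passed between CamK and Grik, while the number over all genes went from 7912 to 4235. The score did not overlap between CamK and the other populations, so the fits of CamK cannot separate it from the population.

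The 13 scaffold genes, which anchor receptors in the postsynaptic density, were higher in CamK than in SST for 11 and lower for 2, with a median of 0.75 (29.5% of all genes were higher and 30.5% lower). Against Grik, 8 were higher in CamK and 0 lower, with a median of 0.37 (20.9% and 21.1% of all genes). Of the 11 kinase and phosphatase genes, 10 were higher in CamK than in SST and 0 lower, beside the same 29.5% and 30.5% of all genes. Camk2a, the kinase that binds GluN2B, was 4077 ± 105 CPM in WT CamK, 4609 ± 313 in WT Grik and 731 ± 59.1 in WT SST (SD, n = 4 each). This gave log2 fold changes of 2.48 (SE 0.08) and 2.66 (SE 0.08) over SST. Camk2a was also among the pyramidal markers of the cell type check.

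The other partners with the largest differences, by a rule of size, belonged to several lists. Over SST, CamK was higher in Kalrn (2.54, SE 0.11), a guanine nucleotide exchange factor of spines, and Ppp3ca (2.37, SE 0.09), a calcineurin catalytic subunit. Grik was higher than SST in the protein kinase Prkca (2.94, SE 0.12). SST was higher than both in Rasgrf2, a calcium-regulated Ras exchange factor (log2 fold change -2.08 and -2.19, SE 0.14 each). SST was also higher than CamK in Neto1 (-1.90, SE 0.09), an auxiliary receptor protein, and the neutral amino acid transporter Slc1a4 (-1.69, SE 0.10), and higher than Grik in Tiam1 (-1.27, SE 0.11) and the glycine transporter Slc6a9 (-0.84, SE 0.12). All of these passed with edgeR adjusted p of 8.9e-07 or less.

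Between the pyramidal populations, CamK was higher in Tiam1, a Rac exchange factor (0.94, SE 0.11), Apba1, an adaptor in receptor transport (0.70, SE 0.08) and Kalrn (0.66, SE 0.10). It was lower in Neto1 (-1.53, SE 0.09), Phgdh, the serine synthesis enzyme (-1.22, SE 0.18) and Prkca (-1.06, SE 0.12), each with an edgeR adjusted p of 1.1e-05 or less. Of the 5 co-agonist genes tested, 4 were lower in CamK than in Grik and 0 higher, with a median of -0.86, where 21.1% of all genes were lower and 20.9% higher. Non-neuronal markers were lower in CamK too: all 5 astrocyte markers (median log2 fold change -1.84), 4 of 5 oligodendrocyte markers (-3.52), both precursor markers (-2.91), 4 of 5 microglial markers (-1.61) and 1 of 3 endothelial markers (-0.63) passed the test. Against SST, 4 of the 5 co-agonist genes were lower in CamK and 1 higher (median -1.42), where 30.5% of all genes were lower and 29.5% higher. What non-neuronal cells contribute to the partner lists was not tested.

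By genotype, 0 of the 45 partners passed in CamK, Grik or SST with edgeR, DESeq2 or limma-voom, with 4, 2 and 1 at an unadjusted p under 0.05, where 7.05, 4.88 and 5.85% of all genes were. Their median log2 fold changes were 0.01, -0.01 and -0.02, against -0.0014, 0.0035 and 0.023 over all genes. In the added mean over populations edgeR called 0, where it called 0.0106% of all genes (1 unadjusted, against 6.66% of all genes in edgeR). Limma-voom called 0 and DESeq2 1, Ephb2, a receptor tyrosine kinase that binds NMDA receptors (log2 fold change 0.26, DESeq2 adjusted p 0.0138, and in edgeR 0.26, SE 0.05, adjusted p 0.365). DESeq2 no longer called it with Grik left out (0.27, adjusted p 0.0763) or turned (0.10, adjusted p 1.0). With Grik turned, Ephb2 was called by DESeq2 and limma-voom in the difference between CamK and Grik (0.61 and 0.64, adjusted p 0.0113 and 0.0461) and not by edgeR (0.61, SE 0.13, adjusted p 0.294). The shares of all genes that DESeq2 and limma-voom called in these fits are not given here, so their calls of Ephb2 have no background beside them.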

How the data were processed

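The authors deposited a table of whole-number counts, with Ensembl genes as lines and libraries as columns. Trimmomatic, STAR and the GRCm38 build are named in the submitters' processing notes; no source used here gives versions, strand setting, read length or how the cells were isolated. The 4 lines that name no gene (12.4 to 18.4% of reads) were left out. Names, positions and lengths came from GENCODE M21, which matched 45143 of 45706 IDs.

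All 23 libraries were fitted together with edgeR 4.0.16 in R 4.3.3 (filterByExpr, TMM scaling, glmQLFit with robust estimation, glmQLFTest, 17 residual degrees of freedom), with Benjamini-Hochberg adjustment over 18823 genes and a threshold of 0.05. The SE is the log2 fold change divided by the square root of F. The common biological coefficient of variation was 16.3%. Ratios were compared by exact two-sided permutation of libraries, and covariation by permutation within groups (Python 3.11.15, numpy 2.4.6, scipy 1.17.1).

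Alternatives were DESeq2 1.42.0, limma-voom (limma 3.58.1) with sample weights, RLE scaling, no filter, a minimum of 1 CPM in 3 libraries, thinning, a fit of the compared populations only, the replicate number as a block, a score of non-neuronal markers as covariate, coding length, and leaving out each library. The length index as covariate, the mean genotype effect, and fits that left out the Grik genotypes or turned the sign of their effect were added after seeing the data. The fit was also tried on simulated counts with 200 changed genes in 3 draws per comparison. Members, partner lists, markers and tests were chosen with earlier results of these data known. Partners named are, per WT comparison, up to 3 called genes higher and 3 lower with the largest change and a mean of 1 CPM or more, and any called between genotypes. Some sequences and 1 partner gene that these rules select are not reported here. Splicing was not analysed here.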

Additional observations from a re-analysis of the deposited data

Results flagged for a closer look

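In groups of 4 libraries, 65 pairs of a measure (the 6 levels and 7 ratios) and a group were examined for a library far from the other 3, by the gap to the nearest library as a share of the range and its 95% critical value. Chance flags about 1 in 20, or 3.25 of 65, and 2 were found. Grin2b in CamK WT replicate 5 was 539.9 CPM against 716.4, 735.7 and 743 CPM in the others, with a gap of 0.869 of the range; this library also had the lowest length index of its group (-0.36). The log2 ratio of Grin3a to Grin1 in Grik WT replicate 5 was -5.542 against -5.38, -5.377 and -5.373, with a gap of 0.9592 of the range. None of the 18 tests of a difference in genotype effect between populations passed the threshold.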

How the results depend on the processing

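The numbers of members called were within 1.5 times those reported under every alternative run, except between CamK and Grik labelled cKO (2 called): there 1 was called without a filter, with the replicate block and with the non-neuronal covariate, and 1 to 2 when single libraries were left out. Of the partner genes, DESeq2 called 1 in the mean genotype effect (0 with edgeR), and with the non-neuronal covariate 17 were called between WT CamK and Grik (32 without it). With that covariate the log2 fold change of Grin2c became 1.14 for WT CamK over Grik (edgeR adjusted p 0.109), 0.0903 for the same populations labelled cKO (0.920) and 0.64 for WT CamK over SST (0.363), and that of Grin2a for SST genotypes -0.00624. Its values did not overlap between CamK and the other populations, so in comparisons with CamK it cannot be separated from the population. Of 6 same-numbered pairs within a population, the deviations of 1 correlated above 0.1 (r -0.10 to 0.13). Among 38 differently numbered pairs within a population 3 did (r -0.19 to 0.16). So few same-numbered pairs cannot show whether replicate numbers pair the libraries. With the replicate block the genotype values of Grin2a, Grin2b, Grin2c and Grin2d in CamK were 0.0109, 0.0619, 0.0996 and -0.114, those of Grin2d and Grin3a in Grik 0.113 and 0.117, and that of Grin2a in SST -0.0769, all of the opposite sign. In same-numbered pairs alone (replicate block) the Grin2a to Grin2b ratio differed by 0.59 for WT CamK over SST and 0.45 for WT Grik over SST, neither past adjustment in so few pairs, and by 0.0798 between Grik genotypes, a reversed sign. Small values also changed sign with limma-voom (Grin1 for WT CamK over Grik -0.00052, Grin2d in CamK genotypes -0.0245, Grin2a in SST genotypes -0.0165), with thinning (Grin2d in CamK -0.00316) and with the length index (Grin2d in CamK -0.00532, Grin2b in SST 0.0247). Leaving out single libraries gave -0.0682 to 0.0835 for Grin1 between WT CamK and Grik. In CamK genotypes it gave -0.19 to 0.0392 for Grin2a, -0.13 to 0.0220 for Grin2b, -0.56 to 0.16 for Grin2c, -0.13 to 0.10 for Grin2d and -0.0928 to 0.0667 for Grin3a. In Grik it gave -0.15 to 0.0589 for Grin2d and -0.16 to 0.0740 for Grin3a, and in SST -0.0742 to 0.12 for Grin2a and -0.16 to 0.10 for Grin2b. The ratio of Grin2a to Grin2b ranged from 0.43 to 0.54 for WT CamK over SST and from 0.39 to 0.49 for WT Grik over SST, where 3 against 4 libraries cannot pass, and from -0.0846 to 0.0249 and -0.0598 to 0.0103 between CamK and Grik genotypes. The cause of these changes was not tested. Grin2c had 19 to 592 reads per library, and whether this depth limits its values was not tested.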
